A study of Mus musculus with 4 samples.

Results

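Translation initiation and elongation factors are the proteins that bring the ribosome to an mRNA, place it on a start codon and drive it along the message. Their genes were followed in smooth muscle cells of C57BL/6 mouse vessels, which contract the artery wall, in culture at passage 4 to 10. The cells had received an siRNA against circEsyt2, a circular RNA that bears the name of the Esyt2 gene, or a scramble siRNA as control, and were measured 48 hours later. Each group holds 2 libraries, circEsyt2 siRNA replicates 1 and 2 and scramble siRNA replicates 1 and 2. Cells that were not transfected were not analysed here, so every difference below is relative to scramble siRNA, and the level of circEsyt2 itself was not analysed here. The genes were chosen by symbol, all those beginning with Eif or Eef apart from the eIF2 kinases (Eif2ak), the eIF2B subunits (Eif2b) and the eIF4E-binding proteins (Eif4ebp). This gave 57 of the 22488 genes listed.

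In a growing cell, initiation begins when eIF2, bound to GTP and the initiator tRNA, joins the small ribosomal subunit together with eIF1, eIF1A, eIF3 and eIF5. eIF4E holds the cap of the mRNA, eIF4G bridges it to the ribosome and the helicase eIF4A unwinds the leader, so that the complex can scan to a start codon. eIF1 holds the scanning complex open and guards against poor start codons, whereas eIF5 triggers GTP hydrolysis by eIF2 and favours start codon recognition. During elongation eEF1A delivers each aminoacyl-tRNA and eEF2 moves the ribosome on by a codon.

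The deposited values are FPKM, read numbers scaled by gene length and library total. The read numbers behind them were recovered from their digits and gave 3765056 and 3127224 reads in the circEsyt2 siRNA libraries and 2516428 and 4116791 in the scramble siRNA libraries. The 57 genes took 2.15% and 2.18% of these reads with circEsyt2 siRNA, and 1.96% and 1.93% with scramble siRNA. All 10 smooth muscle markers were above 0 in every library. This alone does not check the cell label, since all 22 hepatocyte markers were also above 0 in circEsyt2 siRNA replicate 1. The median smooth muscle marker was at 5.36 and 6.62 FPKM with circEsyt2 siRNA and 11.3 and 10.3 with scramble siRNA. For 8 fibroblast markers the median was 6.48 and 4.43 FPKM with circEsyt2 siRNA and 13.8 and 14.3 with scramble siRNA. Acta2, smooth muscle actin, measured 883 and 829 FPKM with circEsyt2 siRNA and 1421 and 1446 with scramble siRNA, while Des, desmin, did not exceed 1.04 FPKM in any library. The summed FPKM of 22 hepatocyte markers was 4086 and 128 in circEsyt2 siRNA replicates 1 and 2, against 20.5 and 10.9 with scramble siRNA. Of these markers, 0 and 1 were at 0 in the circEsyt2 siRNA libraries, against 5 and 7 in the scramble siRNA libraries, and Alb, albumin, alone reached 2083 FPKM in circEsyt2 siRNA replicate 1. Medians of the translation factor groups, and some counts, are therefore also given without that library where they move. The part of these markers in the results was not tested. The summed FPKM of the smooth muscle markers was 1259 and 1146 with circEsyt2 siRNA and 2123 and 2204 with scramble siRNA, that of 8 fibroblast markers 265 and 241 with circEsyt2 siRNA and 349 and 347 with scramble siRNA. For 8 endothelial markers it was 9.89 and 8.16 with circEsyt2 siRNA and 4.04 and 4.68 with scramble siRNA, and for 8 macrophage markers 45.3 and 9.30 with circEsyt2 siRNA and 12.7 and 15.3 with scramble siRNA. In such bulk libraries, fewer cells of a type and less RNA per cell cannot be told apart.

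Since the products of Eif1 and Eif5, which were higher with circEsyt2 siRNA, act on start codon choice, the start codons of some of the factors are shown with 9 bases before and 3 after, read 5′ to 3′ from the GENCODE M21 transcripts (GRCm38), with the start codon in capitals. The first 6 are genes that were higher with circEsyt2 siRNA, the seventh is the gene that was lower, and the others are close relatives or elongation factors that did not pass the test.
Eif1: tcgtatcgtATGtcc
Eif5: taagccaaaATGtct
Eif1ad: gaaaccagcATGtct
Eif2s2: actacagccATGtcc
Eif4a1: ctaaggatcATGtct
Eif3c: gccgtcgccATGtcg
Eef1akmt1: cgactgcgcATGcgt
Eif1b: tagtgtcgcATGtcc
Eif4a2: tttcggatcATGtct
Eif2s1: cacttcagaATGccg
Eif2s3x: ccgagcaagATGgct
Eef1a1: aaagcaaaaATGgga
Eef2: tccgccaccATGgtg
A purine 3 bases before the start codon and a G directly after it are the features of a strong start site. Among all 20770 protein-coding genes with a usable transcript, 84.4% had the purine and 49.4% had the G. Of the 56 translation factor genes with a usable transcript, 48 (85.7%) had the purine and 32 (57.1%) had the G. Of the 7 genes that were higher with circEsyt2 siRNA, 6 had the purine, 0 had the G and 6 had a T in its place, as 14% of all genes do. Eif1, whose own product guards start codon choice, had neither the purine nor the G, as was also the case for its relative Eif1b. These counts describe the sequences, were made after the values were seen and were not tested.

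The levels of the factors spanned a wide range on the FPKM scale, which is per gene length. The 57 genes summed to 6393 and 6358 FPKM with circEsyt2 siRNA and to 5840 and 5770 FPKM with scramble siRNA. By mean FPKM with scramble siRNA the order began with Eef1a1, Eef2, Eif5a, Eef1g, Eef1b2, Eif1, Eif3c, Eif4a1, Eif3a and Eif4g2. The last 4 of these lay between 141 and 158 FPKM in the scramble siRNA libraries, with overlapping values, so their order there is not set by these data. The median gene of the 57 was at 37.8 and 39.6 FPKM with circEsyt2 siRNA and 35.4 and 37.3 FPKM with scramble siRNA. Among the genes that passed the test described below, Eif1 was the most abundant with scramble siRNA and Eif1ad the least.

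**Figure D1:**
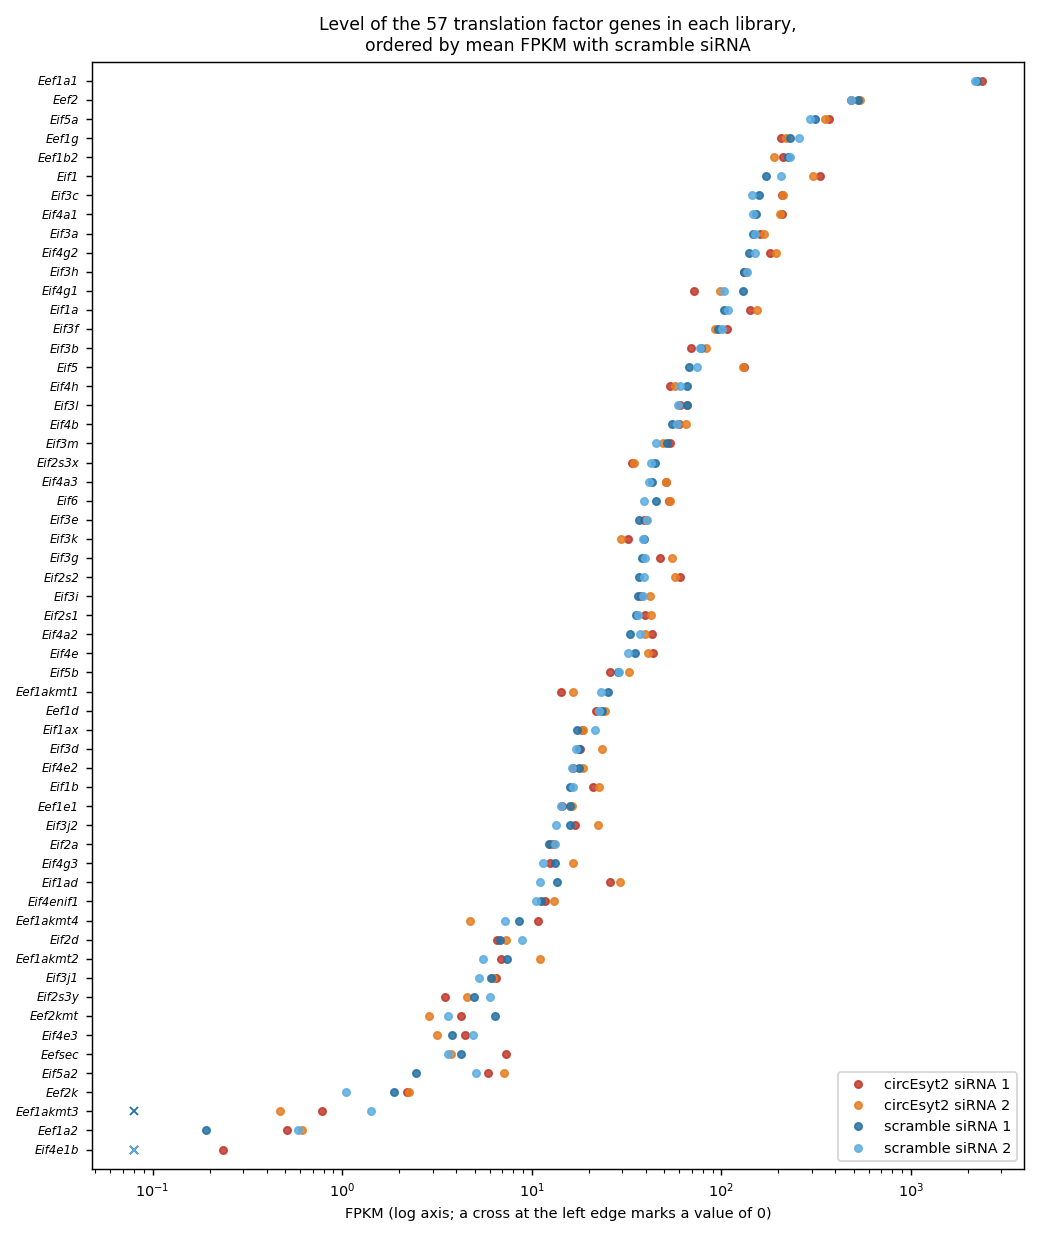
FPKM of all 57 genes in each library (horizontal log axis; 1 row per gene, ordered by mean FPKM with scramble siRNA, with crosses for values of 0). Levels span from 0 for Eif4e1b to 2377 FPKM for Eef1a1, and the points of Eif5, Eif1ad and Eif1 split by group.

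With circEsyt2 siRNA, 7 translation factor genes were higher and 1 was lower. The labels do not say whether the replicates are separate cultures, so p-values measure the spread between these libraries, which may be technical. The higher genes were Eif5, Eif1ad, Eif1, Eif2s2, Eif4a1, Eif3c and Eif1a, and the lower gene was Eef1akmt1. Of the 57 genes, 54 had a mean of at least 1 FPKM over the 4 libraries and entered the test, limma on log2(FPKM + 1) with Benjamini-Hochberg adjustment over all 11290 genes tested. The 7 higher genes are 13.0% of the 54, against 5.47% of all genes tested, and the 1 lower gene is 1.85%, against 7.26% of all genes. In either direction 14.8% of the 54 and 12.7% of all genes passed, which are near each other. The 2 circEsyt2 siRNA libraries lay above both scramble siRNA libraries for 25 of the 54 genes (46.3%, against 29.7% of all genes tested) and below both for 8 (14.8%, against 31.1%). The median log2 fold change of the 54 genes was 0.11, against 0.00 for all genes tested. Without scramble siRNA replicate 1, without scramble siRNA replicate 2 or without circEsyt2 siRNA replicate 2, 0 of the 54 genes passed in limma. Without either scramble siRNA library, 0 of all genes tested passed as well, whereas without circEsyt2 siRNA replicate 2, 2.38% of all genes were still higher and 2.00% lower. At an unadjusted p under 0.05 these 3 fits held 9, 10 and 14 of the 54 genes (16.7%, 18.5% and 25.9%), near the 17.1%, 19.7% and 28.1% of all genes in the same fits. Without circEsyt2 siRNA replicate 1, the library with the most hepatocyte RNA, the median log2 fold change of the 54 genes was 0.14. Fewer of them passed than with all 4 libraries, and the share that was higher lay nearer to that of all genes in the same fit. That fit keeps circEsyt2 siRNA replicate 2, whose hepatocyte markers summed to 128 FPKM, against 20.5 and 10.9 with scramble siRNA. All 8 genes kept their direction in each of the 11 alternative fits. Where 1 library was left out this was fixed in advance, since the groups of these genes did not overlap.

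**Figure D2:**
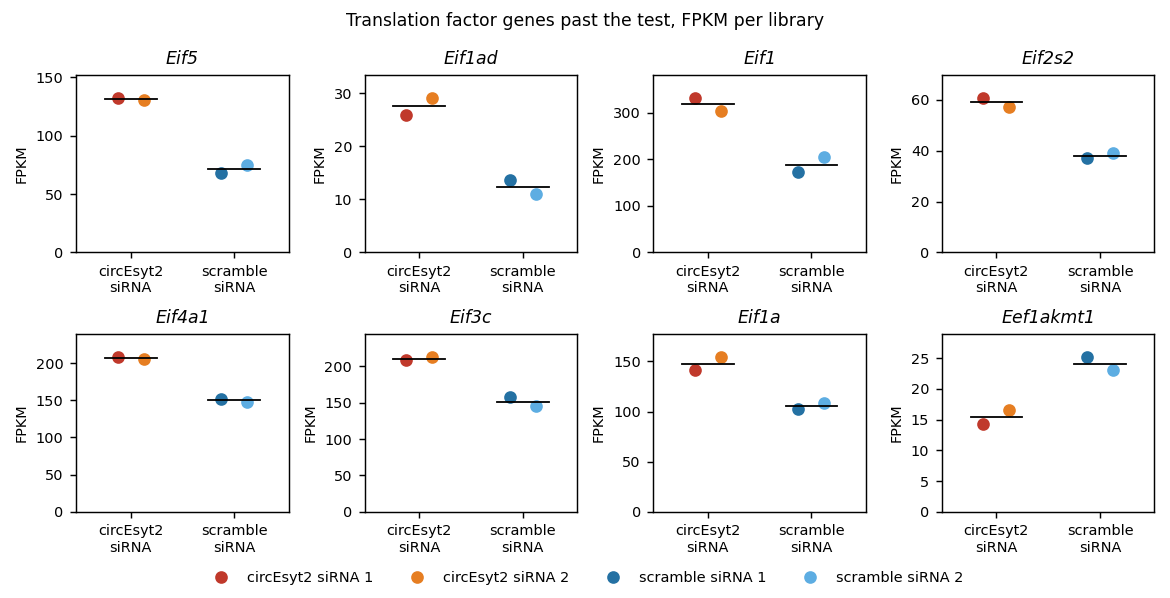
FPKM of the 8 translation factor genes that passed the test, with 1 point per library (vertical axis from 0, circEsyt2 siRNA on the left and scramble siRNA on the right) and a line at each group mean. The circEsyt2 siRNA points lie above the scramble siRNA points in 7 panels and below them for Eef1akmt1.

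The factors that choose the start codon and carry the initiator tRNA, together with the eIF1A-like Eif1ad, held 5 of the 7 higher genes. In this group of 13 genes, all tested, 5 were higher (38.5%, against 5.47% of all genes tested), 0 were lower (against 7.26%) and 8 did not pass, with a median log2 fold change of 0.19 (0.14 in circEsyt2 siRNA replicate 1 and 0.24 in replicate 2, each set against the scramble siRNA mean). The median ran from 0.14 to 0.24 when 1 library at a time was left out, and fewer of the 13 passed in each of these fits.

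Eif5, the GTPase-activating partner of eIF2, is found on the plus strand of chromosome 12 from 111538016 to 111546752 (GRCm38, as for all positions below). It measured 132 and 130 FPKM with circEsyt2 siRNA and 67.6 and 74.8 FPKM with scramble siRNA, values that rest on 3400 and 2775 reads with circEsyt2 siRNA and 1161 and 2101 reads with scramble siRNA. The circEsyt2 siRNA libraries lay close together and well apart from the scramble siRNA libraries. The means were 131 ± 1.62 FPKM with circEsyt2 siRNA and 71.2 ± 5.08 FPKM with scramble siRNA (SD, n = 2 each). By mean FPKM Eif5 was 1.84-fold higher, with a log2 fold change of 0.87 (SE 0.11; limma adjusted p = 0.00832). Over the 11 alternatives that fold change stayed between 0.80 and 0.95, and the adjusted p lay between 0.000381 and 0.184.

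Eif1, the gatekeeper of start codon choice, lies on chromosome 11 at 100319885 to 100322096, plus strand. Its level was 333 and 304 FPKM with circEsyt2 siRNA and 172 and 206 FPKM with scramble siRNA. The groups did not overlap, though the scramble siRNA libraries differed from each other by more than the circEsyt2 siRNA libraries did. It was 1.69-fold higher by mean FPKM, with a log2 fold change of 0.75 (SE 0.12; limma adjusted p = 0.0176, 0.00218 to 0.210 over the alternatives). Eif1b, its close relative, measured 21.01 and 22.7 FPKM with circEsyt2 siRNA and 15.9 and 16.6 FPKM with scramble siRNA and did not pass (log2 fold change 0.41, adjusted p = 0.0986). Within a library Eif1 was 2.51 and 2.34 times the level of Eif5 with circEsyt2 siRNA and 2.55 and 2.75 times with scramble siRNA, ratios that lay close together in all 4 libraries.

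Eif1ad encodes a protein with a domain like that of eIF1A and had the largest fold of the 54 genes. It lies on chromosome 19 at 5366741 to 5371526, plus strand. Its level was 25.9 and 29.1 FPKM with circEsyt2 siRNA and 13.7 and 11.02 FPKM with scramble siRNA, on at least 241 and 225 reads with circEsyt2 siRNA and at least 85 and 112 with scramble siRNA. The lowest circEsyt2 siRNA library lay well above the highest scramble siRNA library. It was 2.23-fold higher by mean FPKM, with a log2 fold change of 1.10 (SE 0.16; limma adjusted p = 0.0124), and passed in 8 of 11 alternatives, the most of the 54 genes. Its exons overlap those of Banf1 on the opposite strand over 428 bases, 15.3% of its exon length. A strand setting is not given in the sources used here, so reads there cannot be told apart. Banf1 measured 92.0 and 80.7 FPKM with circEsyt2 siRNA and 69.8 and 78.5 FPKM with scramble siRNA (log2 fold change 0.22, adjusted p = 0.293).

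Of the autosomal and the X-linked gene for eIF1A, which helps eIF1 in scanning, only the autosomal Eif1a passed, and the difference between their changes was not tested. Eif1a, on chromosome 18 at 46597701 to 46616456, plus strand, measured 141 and 154 FPKM with circEsyt2 siRNA and 103 and 108 FPKM with scramble siRNA. It was 1.40-fold higher by mean FPKM (log2 fold change 0.48, SE 0.10; limma adjusted p = 0.0380, 0.0146 to 0.276 over the alternatives). Eif1a passed in 3 of 11 alternatives. Eif1ax, on the X chromosome, measured 18.4 and 18.8 FPKM with circEsyt2 siRNA and 17.4 and 21.7 FPKM with scramble siRNA, so its groups overlapped (log2 fold change −0.06, 95% interval −0.44 to 0.32). Eif1a held 88.5% and 89.2% of the summed FPKM of both genes with circEsyt2 siRNA and 85.6% and 83.3% with scramble siRNA.

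eIF2 is a trimer of alpha, beta and gamma subunits, and only the gene of the beta subunit passed. Eif2s2, the beta subunit gene on chromosome 2 at 154871410 to 154892935, minus strand, measured 60.8 and 57.1 FPKM with circEsyt2 siRNA and 37.1 and 38.9 FPKM with scramble siRNA. It was 1.55-fold higher by mean FPKM (log2 fold change 0.62, SE 0.11; limma adjusted p = 0.0229, 0.00384 to 0.222 over the alternatives). Eif2s2 passed in 5 of 11 alternatives. Eif2s1, which encodes the alpha subunit that stress kinases phosphorylate, measured 39.6 and 42.4 FPKM with circEsyt2 siRNA and 35.4 and 36.2 FPKM with scramble siRNA. It did not pass (log2 fold change 0.19, 95% interval −0.09 to 0.47, adjusted p = 0.317). The X-linked gamma subunit gene Eif2s3x lay the other way, at 33.7 and 34.7 FPKM with circEsyt2 siRNA and 44.8 and 42.7 FPKM with scramble siRNA. Its groups did not overlap, but it did not pass (log2 fold change −0.35, adjusted p = 0.103). The Y-linked copy Eif2s3y measured 3.51 and 4.53 FPKM with circEsyt2 siRNA and 4.97 and 6.01 FPKM with scramble siRNA, and was not called either (adjusted p = 0.284). Reads of Eif2s3x and Eif2s3y can be shared, since the genes are close in sequence. Within a library Eif2s2 stood at 1.80 and 1.64 times the level of Eif2s3x with circEsyt2 siRNA, against 0.827 and 0.912 times with scramble siRNA. Relative to Eif2s1 it stood at 1.54 and 1.35 times with circEsyt2 siRNA, against 1.05 and 1.08 times with scramble siRNA.

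The remaining factors of the group were near the scramble siRNA level. Eif5b, the GTPase for joining of the ribosomal subunits, measured 25.8 and 32.7 FPKM with circEsyt2 siRNA and 28.4 and 29.1 FPKM with scramble siRNA. Eif2a and Eif2d encode factors that can bring a tRNA to the ribosome without eIF2. Eif2a measured 13.0 and 12.5 FPKM with circEsyt2 siRNA and 12.3 and 13.3 FPKM with scramble siRNA, and Eif2d 6.59 and 7.29 FPKM with circEsyt2 siRNA and 6.84 and 8.86 FPKM with scramble siRNA. The groups of all 3 genes overlapped, and the 95% intervals of their log2 fold changes ran from −0.36 to 0.39, −0.34 to 0.34 and −0.60 to 0.31 in that order.

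**Figure D3:**
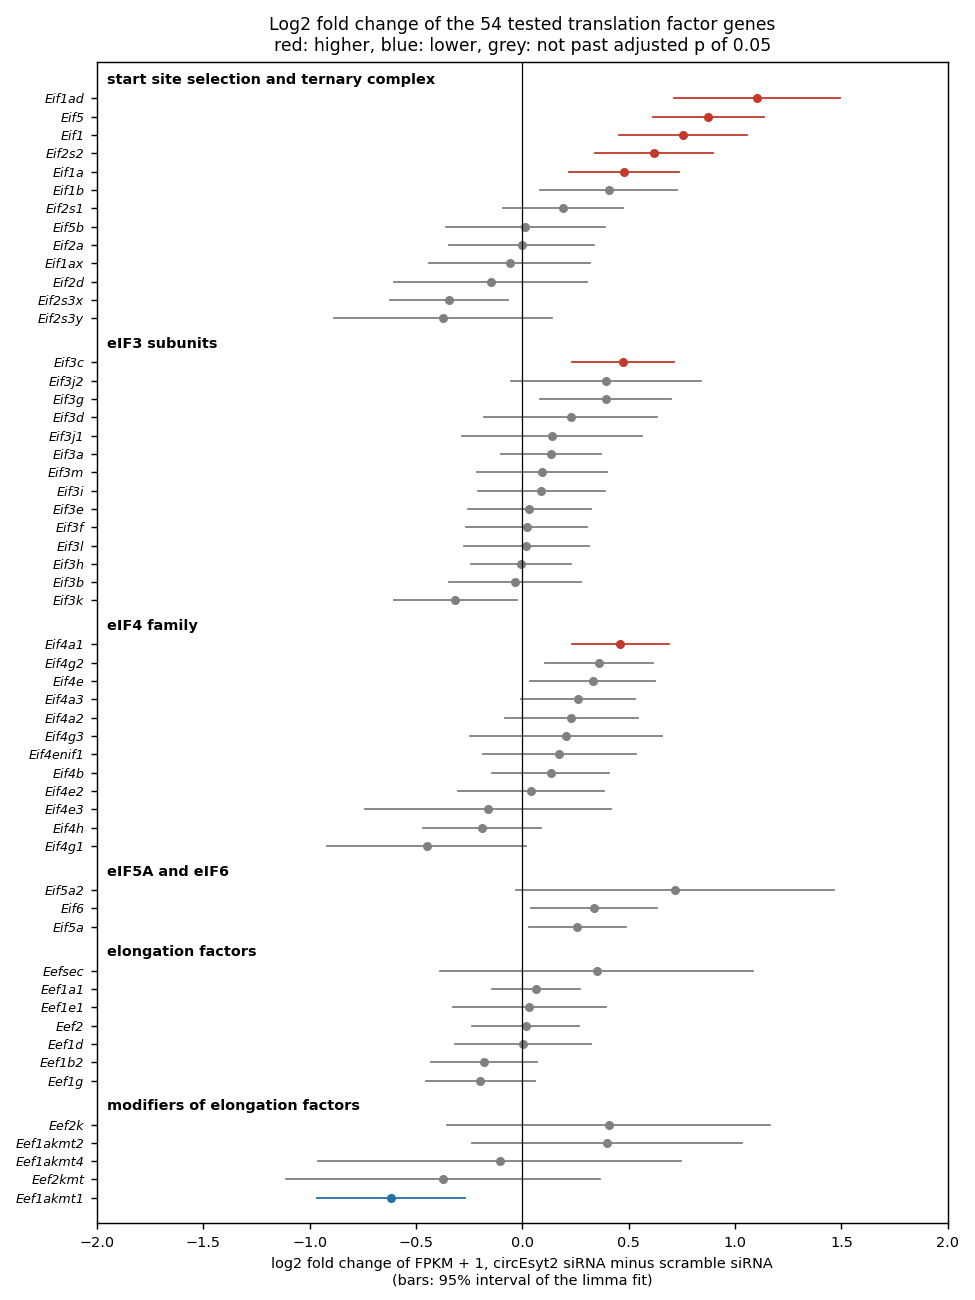
Log2 fold change of the 54 tested genes by role (horizontal axis, circEsyt2 siRNA minus scramble siRNA on the log2(FPKM + 1) scale; points are estimates and bars 95% intervals of the limma fit). The 7 genes that passed upward lie between 0.46 and 1.10, 5 of them in the top group, and all 7 tested elongation factors are grey.

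eIF3, the large scaffold that holds the initiation complex together, had 14 subunit genes, all tested, of which 1 was higher (7.14%, near the 5.47% of all genes tested), 0 were lower (against 7.26%) and 13 did not pass. Their median log2 fold change was 0.09, with 0.11 without circEsyt2 siRNA replicate 1 and 0.071 without circEsyt2 siRNA replicate 2. With all 4 libraries, 3 of the 14 were under an unadjusted p of 0.05 in limma (21.4%, below the 30.1% of all genes tested). Eif3c, a core subunit gene on chromosome 7 at 126546455 to 126566411, minus strand, measured 208 and 213 FPKM with circEsyt2 siRNA and 158 and 145 FPKM with scramble siRNA. It was 1.39-fold higher by mean FPKM (log2 fold change 0.47, SE 0.10; limma adjusted p = 0.0337). Among the alternatives it passed in 3 of 11, and its adjusted p ranged from 0.00785 to 0.222. Eif3a and Eif3b, which encode further subunits, did not pass. Eif3a measured 160 and 168 FPKM with circEsyt2 siRNA and 148 and 151 FPKM with scramble siRNA, and Eif3b 69.3 and 83.2 FPKM with circEsyt2 siRNA and 78.3 and 77.5 FPKM with scramble siRNA. The groups of Eif3a lay apart by a small margin and those of Eif3b overlapped. The ratio of Eif3c to Eif3b within a library was 3.01 and 2.55 with circEsyt2 siRNA, against 2.01 and 1.87 with scramble siRNA. That of Eif3c to Eif3a was 1.30 and 1.27 with circEsyt2 siRNA, against 1.06 and 0.963 with scramble siRNA. Eif3g, which binds eIF4B and mRNA, measured 47.4 and 55.1 FPKM with circEsyt2 siRNA and 38.1 and 39.4 FPKM with scramble siRNA (adjusted p = 0.0986). Eif3k, a further subunit gene, measured 32.3 and 29.7 FPKM with circEsyt2 siRNA and 39.0 and 38.5 FPKM with scramble siRNA (limma adjusted p = 0.138). The groups of these 2 genes did not overlap but neither passed. Eif3h was level, at 131 and 135 FPKM with circEsyt2 siRNA and 131 and 136 FPKM with scramble siRNA (log2 fold change −0.01, 95% interval −0.24 to 0.23). The other 8 subunit genes (Eif3d, Eif3e, Eif3f, Eif3i, Eif3j1, Eif3j2, Eif3l and Eif3m) had log2 fold changes from 0.02 to 0.39 and adjusted p of 0.209 or more. Eif3j1 and Eif3j2 are near-identical copies that can share reads, and Eif3j2 held 72.4% and 78.2% of their summed FPKM with circEsyt2 siRNA and 72.1% and 72.0% with scramble siRNA.

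In the eIF4 family, which recruits the mRNA, 1 of 12 tested genes was higher (8.33%, near the 5.47% of all genes tested), 0 were lower (against 7.26%) and 11 did not pass. Their median log2 fold change was 0.19, with 0.22 without circEsyt2 siRNA replicate 1 and 0.087 without replicate 2. Eif4a1, the main eIF4A helicase gene on chromosome 11 at 69666936 to 69672423, minus strand, measured 208 and 205 FPKM with circEsyt2 siRNA and 152 and 147 FPKM with scramble siRNA. It was 1.38-fold higher by mean FPKM (log2 fold change 0.46, SE 0.09; limma adjusted p = 0.0311) and passed in 4 of 11 alternatives (adjusted p 0.00671 to 0.236). Its paralog Eif4a2 measured 43.1 and 39.6 FPKM with circEsyt2 siRNA and 33.0 and 37.3 FPKM with scramble siRNA, without passing (adjusted p = 0.277), and the groups lay close together. Eif4a1 took 82.8% and 83.8% of the summed FPKM of both genes with circEsyt2 siRNA and 82.2% and 79.8% with scramble siRNA. Eif4e, the cap-binding protein gene, was at 43.9 and 41.2 FPKM with circEsyt2 siRNA and 35.1 and 32.1 FPKM with scramble siRNA (log2 fold change 0.33, adjusted p = 0.128). The other 7 tested genes of the family, Eif4a3, Eif4b, Eif4e2, Eif4e3, Eif4enif1, Eif4g3 and Eif4h, had log2 fold changes from −0.19 to 0.26 and adjusted p of 0.171 or more.

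The scaffold genes of the eIF4G family lay on opposite sides of the scramble siRNA level, and neither passed the test. Eif4g1, the main cap-dependent scaffold, measured 72.0 and 99.0 FPKM with circEsyt2 siRNA and 130 and 103 FPKM with scramble siRNA. Replicates of each group differed widely, and the gap between the nearest libraries of the 2 groups was small (log2 fold change −0.45, SE 0.19, adjusted p = 0.179). Without circEsyt2 siRNA replicate 1 the log2 fold change of Eif4g1 was −0.22. Eif4g2, which encodes a relative that lacks the eIF4E-binding site and serves cap-independent initiation, measured 180 and 195 FPKM with circEsyt2 siRNA and 141 and 151 FPKM with scramble siRNA. Its log2 fold change was 0.36 (SE 0.10, adjusted p = 0.0744), and it passed in 1 alternative, limma's voom on the recovered reads (adjusted p = 0.0181). The ratio of Eif4g1 to Eif4g2 within a library was 0.400 and 0.508 with circEsyt2 siRNA and 0.922 and 0.682 with scramble siRNA. With 2 libraries against 2, an exact two-sided permutation test cannot go below p = 0.333, so the ratios within libraries are descriptions.

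**Figure D4:**
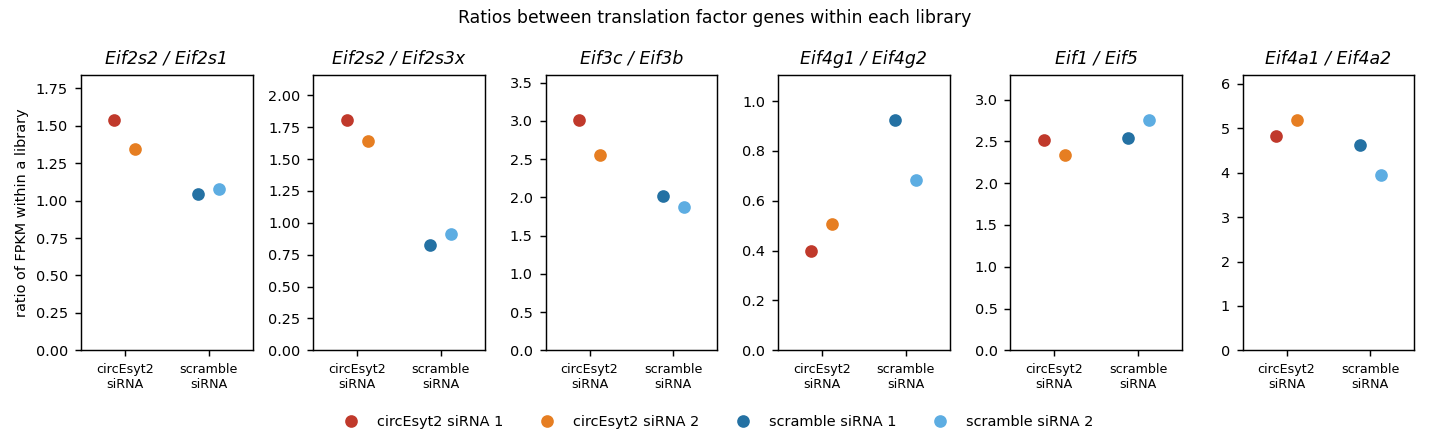
Ratio of the FPKM of 2 genes within each library (vertical axes from 0, 1 point per library, circEsyt2 siRNA on the left and scramble siRNA on the right). The ratios of Eif2s2 to Eif2s3x and of Eif3c to Eif3b lie higher with circEsyt2 siRNA, that of Eif4g1 to Eif4g2 lies lower, and that of Eif1 to Eif5 ranges from 2.34 to 2.75 over the 4 libraries.

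eIF5A, which carries the amino acid hypusine and helps ribosomes past difficult peptide bonds, and eIF6, which keeps ribosomal subunits apart, make up a group of 3 tested genes of which 0 passed in limma. Eif5a and Eif6 were under an unadjusted p of 0.05, as were 30.1% of all genes tested, and 0 of the 3 were without circEsyt2 siRNA replicate 1. Eif5a measured 370 and 354 FPKM with circEsyt2 siRNA and 312 and 293 FPKM with scramble siRNA (log2 fold change 0.26, 95% interval 0.03 to 0.49, adjusted p = 0.127). Eif6 measured 53.3 and 53.7 FPKM with circEsyt2 siRNA and 45.2 and 39.4 FPKM with scramble siRNA (adjusted p = 0.127). The paralog Eif5a2 was far lower, at 5.92 and 7.19 FPKM with circEsyt2 siRNA and 2.45 and 5.07 FPKM with scramble siRNA, where its lowest value rests on 31 reads (log2 fold change 0.72, SE 0.30, adjusted p = 0.179). The circEsyt2 siRNA libraries lay above the scramble siRNA libraries for all 3 genes, as they did for 29.7% of all genes tested.

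Of the 7 tested elongation factor genes 0 passed in limma, against 12.7% of all genes tested, and 0 were under an unadjusted p of 0.05, against 30.1%. Their median log2 fold change was 0.02, and ran from −0.062 to 0.075 when 1 library at a time was left out. Eef1a1 was the most abundant of the 57 genes in every library and held 37.2% and 35.0% of their summed FPKM with circEsyt2 siRNA and 38.1% and 37.8% with scramble siRNA. It measured 2377 and 2228 FPKM with circEsyt2 siRNA and 2224 and 2179 FPKM with scramble siRNA. Its groups were barely apart, and its log2 fold change of 0.06 had a 95% interval of −0.14 to 0.27 (adjusted p = 0.645). Eef2, next in abundance, measured 485 and 540 FPKM with circEsyt2 siRNA and 528 and 486 FPKM with scramble siRNA, so that its groups overlapped (log2 fold change 0.02, 95% interval −0.24 to 0.27). Eef1b2 and Eef1g encode subunits of the exchange factor that recharges eEF1A with GTP. Eef1b2 measured 213 and 190 FPKM with circEsyt2 siRNA and 225 and 231 FPKM with scramble siRNA, and Eef1g 206 and 219.8 FPKM with circEsyt2 siRNA and 231 and 257 FPKM with scramble siRNA. Both lay below the scramble siRNA libraries without passing (adjusted p = 0.288 and 0.259). Eef1d, which encodes a further exchange factor subunit, Eef1e1, whose product sits in the tRNA synthetase complex, and Eefsec, which delivers selenocysteine, had log2 fold changes of 0.00, 0.03 and 0.35, the last with a 95% interval of −0.39 to 1.08. Eef1a2, the form of nerve and muscle, was not tested, with 4 and 4 reads (0.510 and 0.614 FPKM) with circEsyt2 siRNA and 1 and 5 reads (0.191 and 0.583 FPKM) with scramble siRNA.

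Of the genes whose products modify elongation factors, 1 of 5 tested was lower (20%, against 7.26% of all genes tested), 0 were higher (against 5.47%) and 4 did not pass. Their median log2 fold change of −0.11 depended on the library kept, with −0.52 without circEsyt2 siRNA replicate 1, 0.097 without circEsyt2 siRNA replicate 2, 0.0066 without scramble siRNA replicate 1 and −0.22 without scramble siRNA replicate 2. Eef1akmt1, which encodes a lysine methyltransferase of eEF1A, lies on chromosome 14 at 57549597 to 57571612, minus strand. It measured 14.3 and 16.5 FPKM with circEsyt2 siRNA and 25.2 and 23.1 FPKM with scramble siRNA, on 51 and 49 reads with circEsyt2 siRNA and 60 and 90 with scramble siRNA. The groups did not overlap. It fell to 0.639 times the scramble siRNA mean, a log2 fold change of −0.62 (SE 0.14; limma adjusted p = 0.0438), and it passed in 3 of 11 alternatives (adjusted p 0.0387 to 0.286), voom not among them. Without circEsyt2 siRNA replicate 1 its log2 fold change was −0.52 (adjusted p = 0.108). Eef2k, the kinase that inhibits eEF2, was low, at 2.19 and 2.24 FPKM with circEsyt2 siRNA and 1.88 and 1.05 FPKM with scramble siRNA (log2 fold change 0.41, 95% interval −0.36 to 1.17). The methyltransferase genes Eef1akmt2, Eef1akmt4 and Eef2kmt had log2 fold changes of 0.40, −0.11 and −0.37 and adjusted p of 0.346 or more. Eef1akmt3 and the oocyte form of the cap-binding protein, Eif4e1b, were too low for the test, Eif4e1b with 2 and 0 reads with circEsyt2 siRNA and 0 and 0 with scramble siRNA.

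Other parts of the translation machinery gave a frame for these values. Among 83 tested genes for ribosomal proteins 4 were higher and 0 were lower (4.82% and 0%, against 5.47% and 7.26% of all genes tested), with a median log2 fold change of 0.02. That median averages 0.16 in circEsyt2 siRNA replicate 1 and −0.093 in replicate 2, each against the scramble siRNA mean. Its sign thus depended on the library kept, with −0.093 without circEsyt2 siRNA replicate 1 and 0.16 without circEsyt2 siRNA replicate 2. Rpl38 and Rpl29, the 2 with the smallest p, rose by 0.79 and 0.73 on the log2 scale (limma adjusted p = 0.0121 and 0.0274, and 0.0345 and 0.0682 without circEsyt2 siRNA replicate 1). Of 13 genes for termination, recycling and rescue of ribosomes, 2 were higher (15.4%, against 5.47% of all genes tested) and 0 lower (against 7.26%), with a median log2 fold change of 0.06. Without circEsyt2 siRNA replicate 1 the median was −0.052. Etf1, the release factor that reads stop codons, measured 132 and 150 FPKM with circEsyt2 siRNA and 64.1 and 60.4 FPKM with scramble siRNA (log2 fold change 1.17, limma adjusted p = 0.00501), and Gtpbp2, a GTPase that acts on stalled ribosomes, 9.81 and 9.58 FPKM with circEsyt2 siRNA and 3.90 and 3.53 FPKM with scramble siRNA (log2 fold change 1.18, adjusted p = 0.0115). Among 11 genes for poly(A)-binding proteins and regulators of eIF4A and eIF4G, Pabpc4 was lower, at 17.2 and 20.6 FPKM with circEsyt2 siRNA and 31.2 and 29.3 FPKM with scramble siRNA (adjusted p = 0.0377; 0.0901 without circEsyt2 siRNA replicate 1), and 0 were higher. The 1 lower gene is 9.09% of the list, near the 7.26% of all genes tested. Paip2, an inhibitor of the poly(A)-binding protein, did not pass (log2 fold change 0.43, adjusted p = 0.0656).

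Ppp1r15a, which encodes the stress-induced subunit that directs a phosphatase to eIF2 alpha, measured 51.5 and 65.3 FPKM with circEsyt2 siRNA and 17.996 and 18.03 FPKM with scramble siRNA (log2 fold change 1.63, limma adjusted p = 0.00470), and without circEsyt2 siRNA replicate 1 its log2 fold change was 1.80 (adjusted p = 0.00963). It was the 1 of 4 genes to pass (25%, against 12.7% of all genes tested) in a list of hypusine enzymes and eIF2 alpha phosphatase subunits, where Ppp1r15b, the constitutive subunit gene, did not (log2 fold change 0.52, adjusted p = 0.0558). Of 9 tested mitochondrial translation factor genes 0 passed in limma, and 2 were under an unadjusted p of 0.05 (22.2%, below the 30.1% of all genes tested), against 0 without circEsyt2 siRNA replicate 1. These were the elongation factor genes Tufm (log2 fold change −0.42, adjusted p = 0.133) and Gfm1 (log2 fold change 0.36, adjusted p = 0.158). Of 10 genes known for a TOP tract, the run of pyrimidines at the start of mRNAs under growth control, 0 passed in limma and 0 were under an unadjusted p of 0.05 (against 12.7% and 30.1% of all genes tested), with log2 fold changes from −0.20 to 0.13. That list is made of 9 of the factor genes described above and Pabpc1.

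Promoter windows from RefSeq (GRCm38.p6), from 250 bases before to 50 after an annotated start, were at hand for 44 of the 57 genes and 6 of the 7 higher ones. They were searched on both strands for TGATGNAA, the core of the element that ATF4 and C/EBP proteins bind. It was found in 0 of the 6 higher genes, in 2 of the 44 genes (4.55%) and in 4.51% of all 27025 genes with a window. The promoter of Eif5, with the smallest p, is shown as one without the core, and that of Eif2s3x as one with it, on the strand opposite to the gene (TTTCATCA as written). Capitals mark the core and the first 5 bases from the annotated start. A start of C followed by at least 4 pyrimidines was found in Eif2s3x and Eif3f, 2 of 44 genes, against 3.01% of all. Eif3f is among the genes known for a TOP tract. Eef1a1, Eef1b2, Eef2 and Eif4b, also among them, had no such letters at their annotated starts, so this search can miss a TOP tract. The absence of a match says only that these letters are not in this window.
Eif5 (chr12:111537851-111538150, plus strand): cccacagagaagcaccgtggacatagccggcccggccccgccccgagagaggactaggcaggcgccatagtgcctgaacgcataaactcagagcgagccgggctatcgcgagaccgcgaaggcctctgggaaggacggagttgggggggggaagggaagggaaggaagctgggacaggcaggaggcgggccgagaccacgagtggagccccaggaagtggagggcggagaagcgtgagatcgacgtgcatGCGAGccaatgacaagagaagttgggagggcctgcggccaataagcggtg
Eif2s3x (chrX:94212602-94212901, minus strand): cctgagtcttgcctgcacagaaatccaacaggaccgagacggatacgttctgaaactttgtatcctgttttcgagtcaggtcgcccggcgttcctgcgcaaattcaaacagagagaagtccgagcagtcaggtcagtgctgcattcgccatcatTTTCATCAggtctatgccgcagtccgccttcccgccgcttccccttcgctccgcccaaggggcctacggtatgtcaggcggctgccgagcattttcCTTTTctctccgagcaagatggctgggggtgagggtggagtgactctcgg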

How the data were processed

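Total RNA from 4 libraries, 2 per siRNA, was sequenced. The authors deposited 1 FPKM table per library, a unit scaled to gene length and library total. Per the submitters' processing notes Trimmomatic, HISAT2 and featureCounts were used with GRCm38 (mm10); no version or strand setting is given in the sources used here. Read numbers were recovered from the FPKM digits with GENCODE M21 exon lengths, whole within 0.0001 for 96.4% of genes above 0, and by solving for the length in the others, where the read number is a minimum (Eif1a, Eif1ad and Eif3a among the genes reported). Even numbers were commoner than odd ones at low reads, so mates of a pair seem to be counted singly, and independent molecules are fewer than reads.

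Genes with a mean of at least 1 FPKM were tested on log2(FPKM + 1), which understates changes of low genes, with limma 3.58.1 in R 4.3.3 (moderated, trended variance, two-sided, Benjamini-Hochberg over 11290 genes, threshold 0.05). The fit was also tested on simulated reads with a fixed spread between libraries. It called 46 of 100 genes with a log2 change of 1, 98 of 100 with a change of 2 and 9 of 10925 unchanged genes. A gene that did not pass may thus still differ. Alternatives were another pseudocount (0.1), no filter, no trend, median-ratio or quantile scaling, a replicate block, limma's voom on the recovered reads and leaving out each library. Members and lists were chosen with earlier results of these data known. Values were given for every gene that passed, for a set of main factors and for the 2 genes with the smallest p in each list; the other genes were named after their values were seen.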

Additional observations from a re-analysis of the deposited data

How the results depend on the processing

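All 8 genes that passed kept their direction in every alternative. Leaving out 1 library could not reverse it, since the groups of these genes did not overlap. The median log2 fold change of all genes stayed within 0.03 of 0 in each alternative. Of all genes, 203 were higher and 374 lower without a variance trend, and 404 were higher with the replicate block. Of the translation factor genes, 4 were higher and 0 lower with no filter, 1 and 0 without a trend, 3 and 0 with the replicate block, and 0 were lower with voom. Leaving out 1 library gave 0 to 405 genes higher and 0 to 622 lower, and among the translation factor genes 0 to 3 higher and 0 to 0 lower, with the lone library assumed to vary like the others. Replicate numbers alone do not show whether same-numbered libraries are paired. The r of same-numbered deviations was −0.0507 across genes, which with 2 numbers cannot decide it, so the block is given as an alternative only.

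None of the genes that changed sign in an alternative had passed. With quantile normalization the log2 fold change was −0.019 for Eif5b, 0.018 for Eif2a, −0.051 for Eif3f and −0.021 for Eef1d, and with median-ratio scaling 0.014 for Eif2a and 0.011 for Eif3h. Leaving out 1 library, the log2 fold change ranged from −0.15 to 0.18 for Eif5b, −0.040 to 0.12 for Eif4e2, −0.31 to 0.016 for Eif2d, −0.0033 to 0.19 for Eif3m, −0.052 to 0.045 for Eif2a and −0.17 to 0.095 for Eif3b. For the next genes the range was −0.051 to 0.75 for Eefsec, −0.35 to 0.029 for Eif4e3, −0.079 to 0.12 for Eif3f, −0.062 to 0.093 for Eef2, −0.055 to 0.12 for Eef1e1 and −0.035 to 0.10 for Eif3e. For the others it was −0.034 to 0.019 for Eif3h, −0.076 to 0.081 for Eef1d, −0.058 to 0.096 for Eif3l, −0.63 to 0.42 for Eef1akmt4 and −0.21 to 0.094 for Eif1ax. The cause was not tested. The recovered depth of 2516428 to 4116791 reads limits genes such as Eef2k and Eef1akmt1, which rest on under 100 reads a library.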
